A study of Mus musculus with 2 samples.

Results

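Notch signalling was examined through 10 genes in F2 cells, an endothelial line of mouse vascular origin derived from a tumour induced by UV irradiation, on a mixed BALB/c and C57BL/6 background. Members were the gene probe sets annotated with the symbols of 3 ligands (Jag1, Jag2 and Dll4), 2 receptors (Notch1 and Notch4), 3 nuclear partners (Rbpj, Maml1 and Mamld1) and 2 targets (Hes1 and Hey1). Each symbol had 1 probe set, so the members made up 10 of the 22206 gene probe sets measured. The cells had been transfected with a plasmid for hBACCS2, a light-activated switch that opens the Ca2+ channel ORAI1, driven by the CAG promoter together with mCherry. In the blue light condition they received light of 470 nm at about 0.4 mW/mm2 for 2 min at a time with 18 min intervals over 4 h. In the other condition, the sample labels and the study's figure legend describe transfected cells without blue light. The series' design text instead describes control cells without hBACCS2, and a treatment note common to both samples mentions irradiation; the labels were followed here. Only part of the F2 cells takes up the plasmid, so each signal is an average over cells with and without hBACCS2.

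RNA of each condition was hybridised to 1 Clariom S mouse array. The data therefore hold 2 arrays and no replicate, no test between the conditions was possible, and no p-value is given. Precision is limited by this number of arrays throughout. A signal is the linear value of the log2 intensity that the authors normalized and deposited, in arbitrary units, and a log2 ratio is the log2 signal with blue light minus the log2 signal without it. Signals of different probe sets are not set against each other as levels, because each probe set responds to RNA in its own way. A gene was called lower with blue light at a ratio under 0.5 and higher at a ratio above 2, where both signals were over 24, a cutoff near the median of the negative control probes. The median log2 ratio of the 11695 gene probe sets over that signal was -0.01. Endothelial markers were present, with 11 of 12 over the signal cutoff and log2 ratios among them from -0.29 to 0.57. Among them Cdh5, the adhesion molecule of endothelial junctions, had signals of 284467 without and 231925 with blue light. The junction gene Cldn5 was under the cutoff, at 4.50 and 5.03. Of 4 lymphatic endothelial markers, 3 passed the signal cutoff. Lyve1, a receptor of lymphatic endothelium, was among them with signals of 192674 and 157490. Pdpn, also among the 3, was dim at 44.6 and 46.0, above 66.7% and 67.8% of the negative control probes. Prox1, the factor that defines lymphatic endothelium, was under the cutoff at 10.6 and 10.9. Of 8 smooth muscle and pericyte markers 2 passed the signal cutoff, namely Acta2 at 81.4 and 92.1 and Pdgfrb at 37.3 and 25.8. Of the markers of other cell types, 0 of 4 leukocyte, 1 of 5 fibroblast and 1 of 6 epithelial markers passed it.

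Notch is a receptor that works between touching cells. A Delta-like or Jagged ligand on one cell pulls on the receptor of its neighbour, which is then cut by an ADAM protease and by gamma-secretase, and the freed intracellular part enters the nucleus. There it joins the DNA-binding factor RBPJ and a Mastermind co-activator and turns on genes of the HES and HEY families, which encode repressors. In sprouting vessels of the mouse, DLL4 on the leading tip cell restrains sprouting of the cells behind it through NOTCH1, and JAG1 opposes this effect. The pathway also directs arterial identity.

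Of the 9 members over the signal cutoff, 3 were called lower with blue light and 0 higher, where 1.37% of all gene probe sets over the cutoff were called lower and 0.958% higher. The 3 were the ligand genes Jag1 and Dll4 and the nuclear gene Mamld1, with log2 ratios of -1.10, -1.07 and -1.05. A log2 ratio below 0 was found for 8 of the 9, against 51.1% of all gene probe sets over the cutoff, and the exception was Rbpj at 0.02. The median over the 9 was -0.70. The members were chosen with results of these arrays known, and Jag1, Dll4 and Mamld1 all stand in the study's own list of lower genes, so these counts are not independent evidence of a direction. Without those 3 genes, a choice made after seeing the values, 5 of 6 members had a log2 ratio below 0 and the median was -0.52. When 24 was added to each signal first, which shrinks the ratios of dim probe sets, 2 members and 0.633% of all gene probe sets over the cutoff were called lower, Dll4 being the one that lost its call at -0.93.

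**Figure D1:**
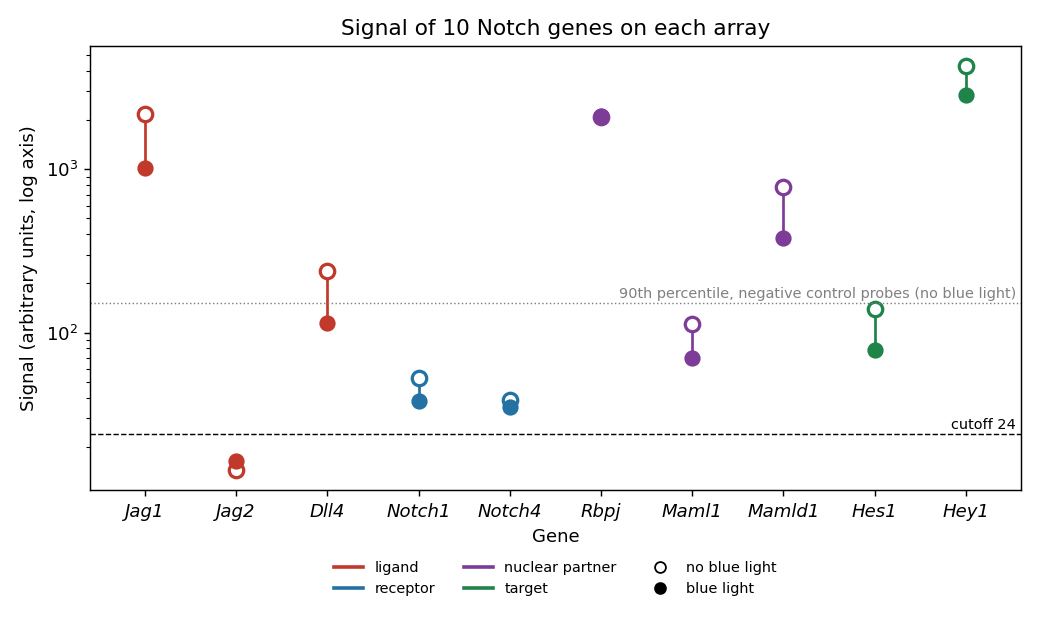
Signal of the 10 Notch genes (vertical axis, arbitrary units, log axis) on the array without blue light (open circles) and with blue light (filled circles), coloured by role, with lines at the signal cutoff of 24 and at the 90th percentile of the negative control probes. Jag1, Dll4 and Mamld1 show the widest gaps, the 2 circles of Rbpj overlap, and Jag2 lies under the cutoff on both arrays.

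The sequences upstream of the 3 genes called lower are shown because they are where RBPJ or its HES and HEY targets could bind. With 2 arrays, likeness of pattern between these genes could not be measured. Each is the 250 bases before the RefSeq start site in GRCm38.p6, written 5′ to 3′ on the gene's strand. Capitals mark matches on either strand to TGGGAA, the core of the RBPJ motif, to its longer form GTGGGAA, which contains the core, to CACGCG, a class C box of HES and HEY repressors, or to CACNAG, the N-box of HES repressors.
Jag1, chr2:137116521-137116770, minus strand: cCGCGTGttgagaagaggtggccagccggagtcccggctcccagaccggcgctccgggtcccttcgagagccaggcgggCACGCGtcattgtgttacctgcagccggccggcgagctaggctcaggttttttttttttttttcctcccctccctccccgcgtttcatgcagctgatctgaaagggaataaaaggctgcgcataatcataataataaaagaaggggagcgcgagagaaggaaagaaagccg
Dll4, chr2:119325534-119325783, plus strand: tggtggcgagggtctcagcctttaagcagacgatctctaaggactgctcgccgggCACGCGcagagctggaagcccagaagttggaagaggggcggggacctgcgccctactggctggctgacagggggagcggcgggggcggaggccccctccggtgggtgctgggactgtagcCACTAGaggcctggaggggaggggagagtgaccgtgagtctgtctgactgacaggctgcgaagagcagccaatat
Mamld1, chrX:71050006-71050255, plus strand: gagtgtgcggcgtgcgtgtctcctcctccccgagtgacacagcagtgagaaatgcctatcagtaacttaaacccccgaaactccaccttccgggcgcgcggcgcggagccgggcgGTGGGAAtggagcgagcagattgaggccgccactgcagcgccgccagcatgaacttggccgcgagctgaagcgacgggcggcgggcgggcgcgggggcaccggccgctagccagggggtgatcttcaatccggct
The Jag1 window held 2 matches to the class C box, beginning 249 and 171 bases before the start site, the first on the opposite strand. The Dll4 window held 1 class C box match at 195 bases and 1 N-box match at 75 bases. The Mamld1 window held 1 match to GTGGGAA at 135 bases. Among all 32851 windows of this length in the table, 7.62% held the class C box, 36.7% the N-box, 21.6% the RBPJ core and 5.42% its longer form. Across the 9 windows of the 8 members matched by symbol, the class C box was found in Jag1 and Dll4, the longer RBPJ form in Mamld1, the RBPJ core in Mamld1 and Rbpj, and the N-box in Dll4 and Notch1. The 2 members not matched were the targets Hes1 and Hey1, which these counts do not cover. These matches describe letters in a window and no binding was measured.

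The ligand genes Jag1 and Dll4 had the lowest ratios of the members. Jag1 read 2166 on the array without blue light and 1014 on the array with it, a ratio of 0.468. Both signals lay above those of 97.7% or more of the 5222 negative control probes, and the log2 ratio was lower than that of all but 0.949% of the gene probe sets over the signal cutoff. Among the 500 gene probe sets nearest in mean signal, the central 95% of log2 ratios ran from -0.82 to 0.71, so Jag1 lay outside that range. This range is the spread between genes on the same 2 arrays and not a replicate error. Dll4, the ligand of tip cells and arteries, read 239.4 on the array without blue light and 114.3 on the array with it, a ratio of 0.477. It lay just outside the range of the probe sets nearest in signal, which was from -1.03 to 0.83. With blue light its signal was above that of 86.2% of the negative control probes, against 93.6% without, so the lower signal of Dll4 was the nearer to background of those of the called genes. The ratios of Jag1 and Dll4 were alike in size, with log2 values at most 0.03 apart as deposited and under each scaling, and 0.15 apart with 24 added. Jag2, the third ligand among the members, had signals of 14.4 and 16.4, under the cutoff on both arrays and under the negative control medians of 26.2 and 26.5. Its log2 ratio of 0.18 therefore carries little weight.

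The receptor genes had the weakest signals of the members over the cutoff when each was set against the negative control probes. Notch1, the main receptor of endothelial cells, read 52.8 on the array without blue light and 38.3 on the array with it, a ratio of 0.726. Notch4, a receptor largely restricted to endothelium, had signals of 38.9 and 35.1, a ratio of 0.903. Between 59.8% and 71.8% of the negative control probes were below these values. The log2 ratios of -0.46 and -0.15 were both within the fold cutoff and well inside the range of probe sets of like signal, which reached from -1.05 to 1.01 for Notch1. A difference in the receptors was thus not detectable with 1 array per condition at these signals. Notch2, a receptor that was not among the members, was clearer of background, with signals of 245.9 and 265.9 and a ratio of 1.08. Notch3, the receptor of mural cells, had signals of 21.3 and 30.8 and did not pass the cutoff on both arrays.

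The nuclear partners diverged from each other. Rbpj, which encodes the factor that all Notch receptors act through, read 2099 on the array without blue light and 2122 on the array with it, a ratio of 1.01. Its sign depended on the scaling, with a log2 ratio of -0.03 under median scaling and 0.06 under quantile and loess scaling. Maml1, a Mastermind co-activator, had signals of 113.5 and 69.9, and its ratio of 0.616 stayed inside the fold cutoff. Its log2 ratio of -0.70 was inside the range of probe sets of like signal, from -0.97 to 0.87. Mamld1, an X-linked gene named for its mastermind-like domain, had signals of 784.4 and 378.2, a ratio of 0.482. It lay outside its range of -0.83 to 0.80, and both signals exceeded those of 95.7% or more of the negative control probes. Between Mamld1 and Rbpj the log2 ratios differed by 1.07. Of the Mastermind genes outside the members, Maml2 had signals of 109.8 and 85.9, a ratio of 0.782. Maml3 was under the signal cutoff at 14.9 and 11.6.

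The HES and HEY targets among the members were both lower in signal with blue light, and neither reached the fold cutoff. Hes1, a repressor gene with a short-lived transcript that many cell types switch on after Notch activation, read 140.2 on the array without blue light and 78.0 on the array with it, a ratio of 0.556. Its log2 ratio of -0.85 was just inside the range of probe sets of like signal, from -0.89 to 0.94. Hey1, which acts in endothelial and arterial development in the mouse, had signals of 4285 and 2856, a ratio of 0.667. This was also inside its range, from -0.70 to 0.70. Hey1 was well above the negative control probes on both arrays, whereas 89.3% of these probes were below Hes1 without blue light and 80.4% with it. At a fold cutoff of 1.5, 6 members were lower, namely Jag1, Dll4, Mamld1, Hes1, Maml1 and Hey1, where 8.47% of all gene probe sets over the signal cutoff were lower by that rule. Hey1 stood almost exactly on that threshold.

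**Figure D2:**
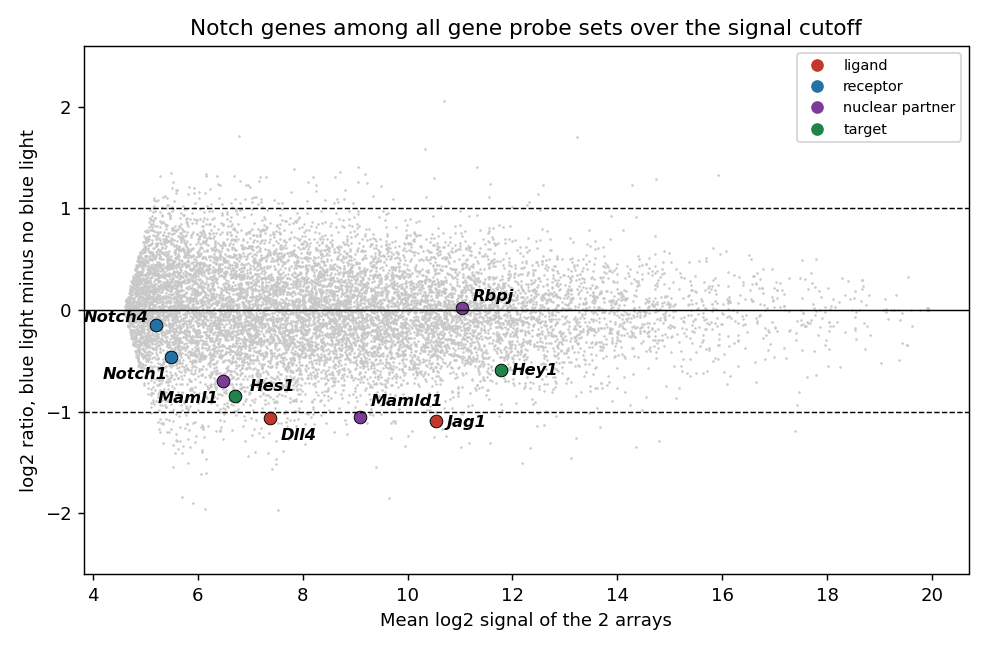
Log2 ratio of blue light minus no blue light (vertical axis) against the mean log2 signal of the 2 arrays (horizontal axis) for all gene probe sets over the signal cutoff (grey) and the 9 Notch genes over it (coloured by role), with dashed lines at the fold cutoff. Jag1, Dll4 and Mamld1 lie just below the lower line, Rbpj lies near 0, and 4 grey probe sets fall beyond the axis.

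Set side by side by role, the members over the cutoff had median log2 ratios of -1.08 for 2 ligands, -0.30 for 2 receptors, -0.70 for 3 nuclear partners and -0.72 for 2 targets. Ligands were below receptors by 0.78 on the log2 scale and below targets by 0.37, and the targets were below the receptors by 0.41. Each of these medians rests on 2 or 3 genes and 1 array per condition, and the differences between roles were not tested. The ligand median is that of Jag1 and Dll4 alone, which already stood in the study's list of lower genes. The receptors it is set against had signals near the negative control probes. Outside the members, the ligand Dll1 had a log2 ratio of -0.59 and the receptor Notch2 one of 0.11. The ligands had the lowest median under median, quantile and loess scaling as well, and the receptors had the highest. In bulk RNA, fewer cells with a transcript and less of it per cell cannot be told apart.

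**Figure D3:**
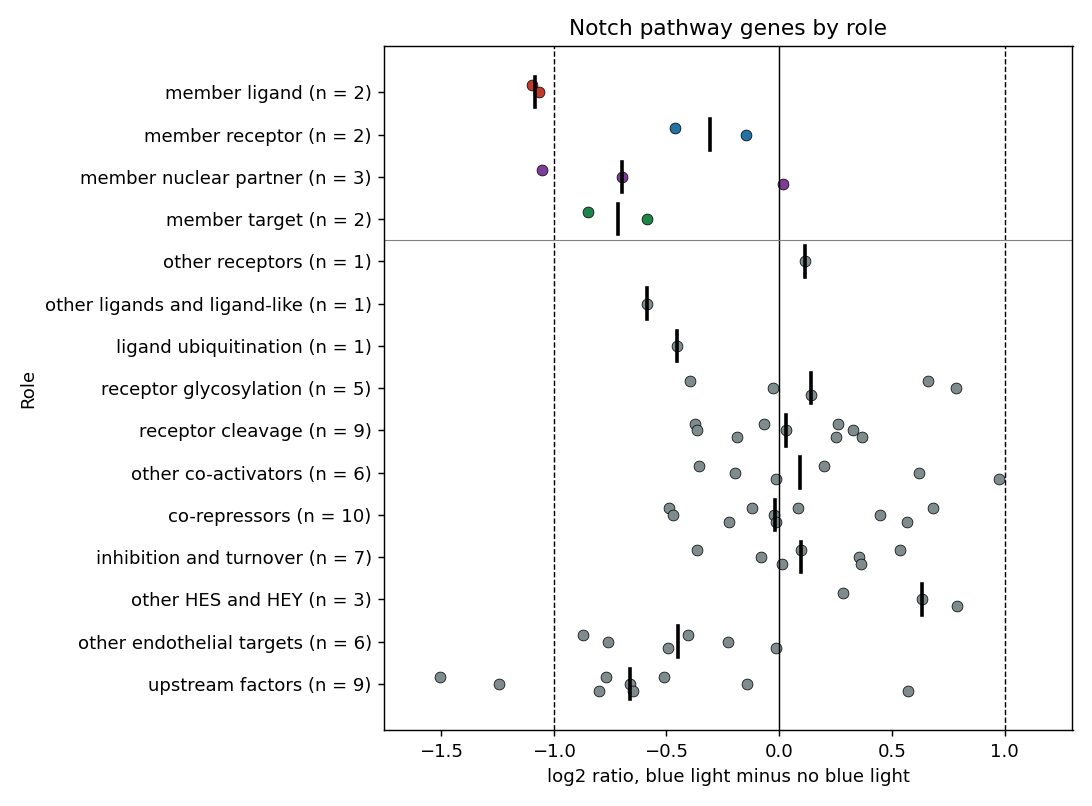
Log2 ratio of blue light minus no blue light (horizontal axis) for each Notch pathway gene over the signal cutoff (1 point per gene), by role (rows), with the median of each role as a black bar and the fold cutoff as dashed lines. Points of the member ligands, the other endothelial targets and most upstream factors lie left of 0, and those of the other HES and HEY genes lie right of it.

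A wider list of 79 other Notch pathway genes was set beside the members, of which 75 had a named probe set and 58 passed the signal cutoff. Of these, 2 were called lower and 0 higher, beside 1.37% lower and 0.958% higher of all gene probe sets over the cutoff. The median log2 ratio was -0.02. Both lower genes were transcription factors upstream of the pathway. Among the 49 genes outside that group of upstream factors 0 were past the cutoff in either direction. A count of 0 among 49 genes is near those shares and says little about these genes. Dll1, a ligand not among the members, had signals of 408.5 and 272.3, and its ratio of 0.667 stayed inside the fold cutoff. Dll3 was under the signal cutoff on both arrays, as were the ligand-like genes Dlk1 and Dner, and Dlk2 passed it on 1 array alone. Mib1, the ubiquitin ligase that ligands need to signal, had signals of 1068 and 780.3, a ratio of 0.730.

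Among 7 other HES and HEY genes, 3 passed the signal cutoff on both arrays. These 3 had log2 ratios above 0, where Hes1, Hey1 and 51.1% of all gene probe sets over the cutoff were below it. Hes5, a Notch target best known from neural progenitors, read 105.7 on the array without blue light and 164.1 on the array with it, a ratio of 1.55. Hes7, which drives the somite clock in the mouse embryo, had signals of 115.2 and 199.0, a ratio of 1.73. Hes2 went from 36.8 to 44.7, and the median log2 ratio of these 3 genes was 0.63. All 3 were within the fold cutoff and inside the range of probe sets of like signal, and all 3 had a log2 ratio above 0 under each scaling tried. Signals without blue light were above those of between 61.4% and 86.7% of the negative control probes, so expression of these genes in F2 cells is uncertain. Hes3 and Hey2 were under the signal cutoff on both arrays. Hes6 and Heyl passed it on 1 array, with log2 ratios of -0.47 and 0.48.

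Further genes known to respond to Notch in endothelium had log2 ratios below 0 in 6 of 6 cases over the signal cutoff. Of all gene probe sets over it, 51.1% were below 0. The median of the 6 was -0.45, and 0 of them passed the fold cutoff. The list was chosen with earlier results of these data known, so the count is not independent evidence of a direction. It was not split by whether Notch raises or lowers each gene. The shared sign is therefore not read as a shared response to Notch. Flt1, a decoy receptor for VEGF that Notch raises, read 402.7 on the array without blue light and 220.2 on the array with it, a ratio of 0.547. Efnb2, the arterial ephrin, had signals of 2717 and 1605, a ratio of 0.591. Nrarp, a feedback inhibitor of Notch, had signals of 152.6 and 108.5, a ratio of 0.711. These were the 3 largest differences of the group, and each was inside the range of probe sets of like signal. Cxcr4, at 25.2 and 24.97, had the smallest difference of the 6 and was close to the cutoff. Its log2 ratio of -0.01 carries little weight in the count. Gja4 and Gja5, which encode arterial connexins, were under the cutoff on both arrays.

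The machinery that modifies and cuts the receptor showed no call among 14 probe sets. At 1.37% lower and 0.958% higher over all gene probe sets, a list of this size would hold few calls. In receptor cleavage, 9 genes over the cutoff had log2 ratios from -0.37 to 0.37 with a median of 0.03. Furin, the protease of receptor maturation, had signals of 871.7 and 672.4, a ratio of 0.771. Aph1b and Aph1c, near-identical genes for a gamma-secretase subunit whose probes may not tell them apart, had ratios of 1.29 and 0.778. Both were dim, with signals of 58.9 and 76.0 for Aph1b and of 37.3 and 29.0 for Aph1c. Between 53.3% and 79.9% of the negative control probes were below these values. Among the glycosylating enzymes, Lfng and Rfng, which encode Fringe proteins that tune the choice between Delta-like and Jagged ligands, had ratios of 0.761 and 1.58. The Rfng signals of 116.0 and 183.2 were above 86.8% and 91.4% of the negative control probes. Mfng, also a Fringe gene, was further above these probes, with signals of 5353 and 5900 and a ratio of 1.10. Pofut1, the enzyme that places O-fucose on Notch, had signals of 24.2 and 41.5, near the negative control medians.

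Cofactors and inhibitors also had no call, which at shares of 1.37% lower and 0.958% higher over all gene probe sets says little about them. Co-repressors had a median log2 ratio of -0.02 over 10 genes, with Cir1 at 0.68, Spen at 0.57 and Tle1 at -0.49. Cir1 and Spen both encode partners through which RBPJ represses its targets. Other co-activators had a median of 0.09 over 6 genes, with the acetyltransferase gene Kat2b at 0.98, from a signal of 25.9 near background to 50.9, and Snw1 at 0.62. Genes of inhibition and turnover had a median of 0.10 over 7 genes, with Dtx4 at 0.53, Itch at -0.37 and Numb at 0.36. The Dtx4 signals of 32.3 and 46.8 were above only 56.9% and 68.4% of the negative control probes.

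Factors upstream of Dll4 and of arterial Notch genes had a median log2 ratio of -0.66 over 9 genes. Of these, 8 were below 0, against 51.1% of all gene probe sets over the signal cutoff. This list too was chosen with earlier results of these data known. The 2 called lower were Sox18 and Sox7, endothelial SOX factors that act on Notch genes in the mouse and the zebrafish. Sox18 read 7819 on the array without blue light and 2756 on the array with it, and Sox7 had signals of 2631 and 1114. Foxc1, a forkhead factor that can switch on Dll4, had signals of 100.04 and 57.6, and its ratio of 0.575 stayed inside the fold cutoff. Vegfa, whose product raises Dll4 in endothelium, was the only one of the 9 with a log2 ratio above 0, at 0.57.

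**Figure D4:**
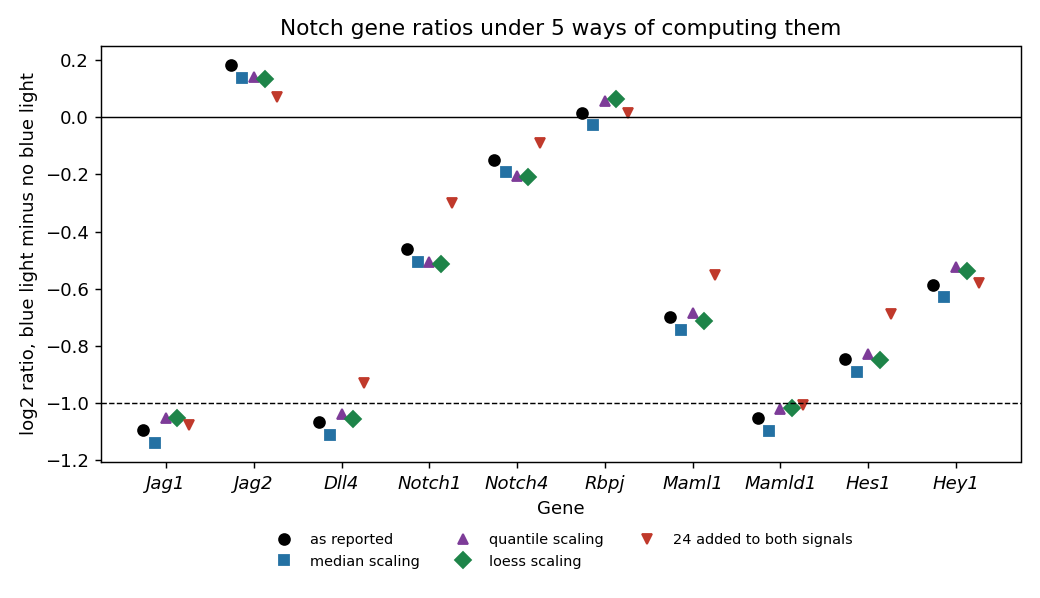
Log2 ratio of blue light minus no blue light (vertical axis) for each of the 10 Notch genes as reported, after 3 kinds of scaling (median, quantile, loess), and after adding 24 to each signal, with a dashed line at the fold cutoff. Dll4 crosses the line with 24 added, Jag1 and Mamld1 stay at or below it, and Rbpj lies on both sides of 0.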

How the data were processed

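Signals of 2 Clariom S mouse arrays were analysed, 1 per condition. Normalization by the authors used the Microarray Data Analysis Tool, and the values they deposited are log2 signals. The sources used here do not give the method of normalization or any background correction. Of the 28846 rows, 6640 hold controls and entered no count of genes. Symbols come from the platform annotation, in which 19572 gene probe sets have 1 symbol, 0 several and 2634 none. Calls used the fold and signal limits of the study's methods. That the signal had to exceed 24 on both arrays was a choice made here. By this rule 112 gene probe sets were higher and 160 lower, more than the study reports in each direction. Each member's ratio was described beside the 500 gene probe sets of closest mean signal. Promoter windows are from RefSeq. Steps were tested on simulated data. The alternatives were 3 scalings (loess span 0.3), other signal and fold cutoffs, and an offset.

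The members and lists were chosen with earlier results of these data known. Named genes were all members and, from the wider list, paralogues of members, genes past the cutoff and the 3 largest absolute log2 ratios of each role. Cxcr4, Gja4, Gja5, Vegfa, Mfng, Cdh5, Cldn5, Vwf, Lyve1, Prox1, Pdpn, Acta2, Pdgfrb, Dlk1, Dlk2 and Dner were named after their values were seen. Python 3.11.15 was used with numpy 2.4.6, pandas 2.3.3, statsmodels 0.14.6 and matplotlib 3.10.9.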

Additional observations from a re-analysis of the deposited data

How the results depend on the processing

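The calls of Jag1 and Mamld1 held under each scaling (median, quantile and loess) and after adding 24 to each signal, and that of Dll4 held under the 3 scalings. With 24 added, Mamld1 was at -1.01, on the edge of the cutoff. With the signal cutoff at 24 on either array, at 100 on both or absent, 3 members were lower each time, where 1.94%, 0.987% and 1.75% of all gene probe sets kept were lower. At a fold cutoff of 1.5, which admits more genes by construction, 6 members were lower, and of the other Notch pathway genes 9 were lower and 7 higher, beside 8.47% lower and 7.55% higher of all gene probe sets over the cutoff. The median over the members ranged from -1.05, with both signals over 100, where 5 members were left, to -0.52 without Jag1, Dll4 and Mamld1. No receptor had both signals over 100, so that alternative gives no receptor median. All values rest on 1 array per condition, and the dim signals of Notch1, Notch4, Maml1 and Hes1 limit what their ratios can show. The spiked control transcripts had log2 ratios from -0.22 to 0.11. No paired analysis was possible because each condition has 1 array and no test was made.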
